A study of Homo sapiens with 6 samples.

Results

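miR-31, miR-135b and miR-224 are microRNAs that have been found raised in colorectal tumours again and again. They were examined here through 5 mature strands, hsa-miR-31-5p, hsa-miR-31-3p, hsa-miR-135b-5p, hsa-miR-135b-3p and hsa-miR-224-5p (the species prefix is left out below), chosen by name among the 2588 miRNAs of the count file. All 5 passed the filter on low counts, as did 800 miRNAs in all. The libraries came from Caco-2 cells, an established line from a colorectal adenocarcinoma, grown in Eagle's Minimum Essential Medium with serum and given no treatment that the labels name. RNA was either kept as input (3 libraries) or immunoprecipitated with an antibody that binds N7-methylguanosine (m7G-RIP, 3 libraries), and small RNA was then sequenced from each. In the study's protocol the RNA was decapped, to remove the m7G of mRNA caps, and heat-denatured before the input aliquot was set aside. The comparison asks which miRNAs are over-represented among the RNAs that the antibody captured.

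A miRNA hairpin is cut by DROSHA and then by DICER into a short duplex, of which a 5p strand comes from the 5′ side and a 3p strand from the 3′ side. The strand that Argonaute keeps guides silencing of mRNAs through its seed, the bases near its 5′ end, and the partner strand is usually lost. miR-31 is known for targets in invasion and RAS signalling, miR-135b for repressing APC, the brake on Wnt signalling that most colorectal tumours lose, and miR-224 for raised levels in several carcinomas.

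The mature sequences are shown because the arms of a hairpin differ in base composition and because seeds separate the 3 families. They come from RefSeq on GRCh38.p14 and run 5′ to 3′, with the seed (bases 2 to 8) in capitals.
miR-31-5p: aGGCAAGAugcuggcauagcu
miR-135b-5p: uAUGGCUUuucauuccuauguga
miR-135b-3p: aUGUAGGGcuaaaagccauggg
miR-224-5p: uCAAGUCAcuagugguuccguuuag
These sequences hold 7 G among 21 bases, 4 among 23, 8 among 22 and 6 among 25, in that order. Of these 4, only miR-135b-5p shared its seed with another miRNA of the count file that had a RefSeq sequence, miR-135a-5p. No other mature miRNA of the RefSeq table carried the seed of miR-31-5p or of miR-224-5p. miR-31-3p was examined by its counts.

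The mature strands lie on the minus strand of GRCh38.p14 at chr9:21512158-21512178 (miR-31-5p), chr1:205448361-205448383 (miR-135b-5p), chr1:205448323-205448344 (miR-135b-3p) and chrX:151958628-151958652 (miR-224-5p). In GENCODE the hairpin MIR31 falls in an intron of its host long noncoding RNA, MIR31HG. MIR135B falls in introns of LEMD1 and BLACAT1 on the same strand. MIR224 lies within GABRE, which encodes a GABA receptor subunit, and overlaps exons only of 2 retained-intron transcripts out of 12 annotated for the gene. The hairpin MIR452 lies 969 bases from MIR224 in the same gene.

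Counts summed to between 16466178 and 19628046 in the input libraries and to between 1654102 and 3105129 in m7G-RIP, where replicate 3 was the shallowest. Levels are given below as CPM, counts scaled to a common library size with edgeR's TMM factors, and 3 counts equal 0.235 to 0.262 CPM in an input library and 0.676 to 1.11 CPM in an m7G-RIP library. A small RNA read spans a whole mature strand, so CPM was compared between miRNAs without division by length. Each level is an average over the culture, in which fewer expressing cells and less RNA per cell cannot be told apart. All 8 epithelial and intestinal marker miRNAs (miR-192, miR-194, miR-215 and the miR-200 family) had counts in every input library, with a summed level of 113972 to 121685 CPM. Markers of muscle, stroma, blood, endothelium, neurons and liver had a summed level of 1639 to 1707 CPM in input libraries and of 1019 to 1410 CPM in m7G-RIP libraries. Among these 11, 8 had counts in every input library. The highest were the endothelial miR-126-3p and the muscle miRNA miR-1-3p, with input means of 778 and 644 CPM. The liver miRNA miR-122-5p had no count in any library.

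miR-224-5p was the most abundant of the 5 in the input. It had 1402, 1780 and 1554 CPM in input replicates 1, 2 and 3, a mean of 1579 ± 190 CPM (SD, n = 3), which placed it 53rd by input level among the tested miRNAs. miR-31-5p followed with 274, 281 and 297 CPM (mean 284 ± 11.6, SD, n = 3), miR-135b-5p with 71.9, 68.6 and 61.8 CPM (mean 67.4 ± 5.15, SD, n = 3), and miR-31-3p with 29.1, 17.9 and 26.2 CPM (mean 24.4 ± 5.78, SD, n = 3). miR-135b-3p was the rarest at 4.43, 2.66 and 3.14 CPM (mean 3.41 ± 0.915, SD, n = 3). No neighbouring pair in this order overlapped across the input libraries. Even miR-224-5p took only 0.108% of all input counts, against 18.9% for miR-21-5p, another miRNA raised in colorectal cancer.

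**Figure D1:**
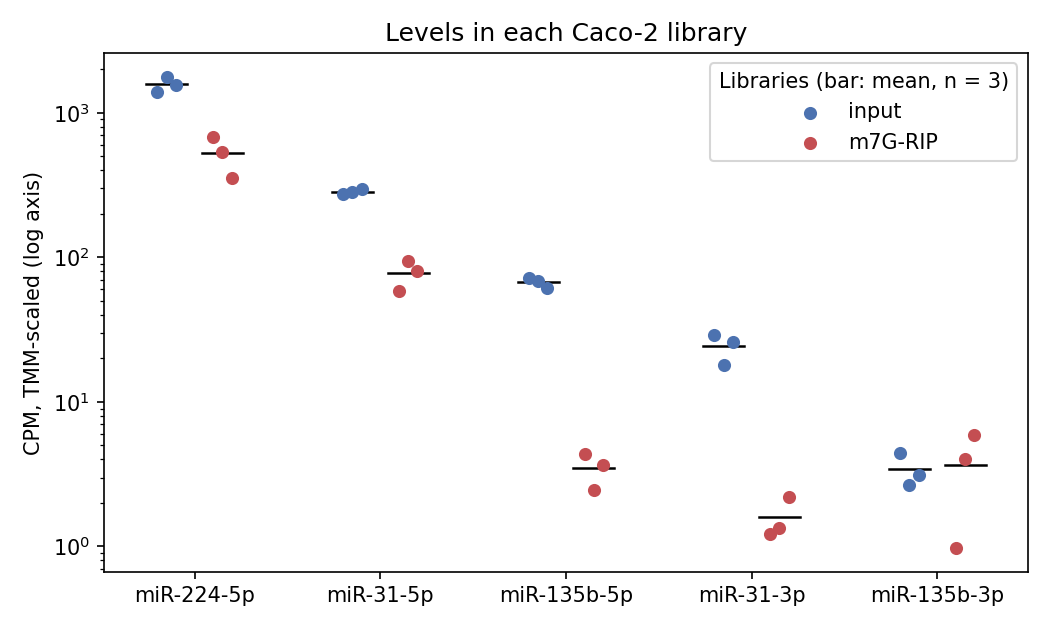
CPM (log axis) of the 5 miRNAs in each input and m7G-RIP library of Caco-2 cells, where each point is a library and the bar is the mean of 3. The input points lie above all m7G-RIP points for every strand except miR-135b-3p, whose m7G-RIP points run from 0.971 to 5.89 CPM across its input points.

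In m7G-RIP, 4 of the 5 strands were lower than in the input and 1 did not pass the test. miR-135b-5p and miR-31-3p fell the most, miR-31-5p and miR-224-5p fell less, and miR-135b-3p stayed near its input level. None of the 5 was enriched (0 also at an unadjusted p under 0.05 in edgeR, and 0 in DESeq2's Wald test). For comparison, 38.1% of all 800 tested miRNAs were called depleted and 40.1% enriched at the threshold of 0.05 on the p-value adjusted by Benjamini-Hochberg over all of them (quasi-likelihood test of edgeR), so that depletion was a common result among miRNAs of this experiment. The input and m7G-RIP levels did not overlap, with m7G-RIP lower, for the same 4 strands and for 40.8% of all tested miRNAs.

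miR-224-5p had 681, 533 and 356 CPM in m7G-RIP replicates 1, 2 and 3, from 2805, 2369 and 967 counts. Every one of these levels was below the lowest input level. The log2 enrichment, m7G-RIP over input, was -1.59 (standard error, SE, 0.21, edgeR adjusted p = 1.37e-05), a 3.01-fold lower level in m7G-RIP. At its share of the input, 3321, 3340 and 1779 counts would have been drawn in the m7G-RIP libraries by total counts alone.

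miR-31-5p, the guide strand of its hairpin, had 58.7, 93.9 and 80.3 CPM in m7G-RIP, from 242, 417 and 218 counts. The highest of these was below the lowest input level of 274 CPM, and the mean of 77.7 ± 17.7 CPM (SD, n = 3) corresponded to a log2 difference of -1.87 (SE 0.19, edgeR adjusted p = 9.56e-07). Its partner miR-31-3p had 1.21, 1.35 and 2.21 CPM, from only 5, 6 and 6 counts, where its input share would have given 51.8, 52.1 and 27.8 counts. The log2 enrichment of miR-31-3p was -3.98 (SE 0.38, edgeR adjusted p = 6.66e-07).

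miR-135b-5p, the strand known to repress APC, had the lowest log2 enrichment of the 5, within the standard errors of miR-31-3p. It went from 843, 876 and 708 counts in the input to 18, 11 and 10 counts in m7G-RIP, or 4.37, 2.48 and 3.68 CPM. At its input share 142, 143 and 76.2 counts would have been drawn. The log2 enrichment was -4.27 (SE 0.27, edgeR adjusted p = 1.09e-08), a 19.3-fold lower level. Its partner miR-135b-3p had 52, 34 and 36 counts in the input and 4, 18 and 16 counts in m7G-RIP, or 0.971, 4.05 and 5.89 CPM. Its m7G-RIP libraries lay on either side of the input libraries, replicate 1 below and replicate 3 above all 3. With a log2 enrichment of 0.041 (SE 0.54, edgeR adjusted p = 0.945) its direction could not be told at this depth.

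Among all 800 tested miRNAs the middle 50% ran from a log2 enrichment of -2.07 to 2.03, with a median of 0.16. miR-135b-5p was 61st from the most depleted end, with 7.5% of the tested miRNAs below it, and miR-31-3p was 73rd. miR-31-5p had 26% and miR-224-5p 29.5% of tested miRNAs below it, which put both near the lower edge of the middle 50%.

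**Figure D2:**
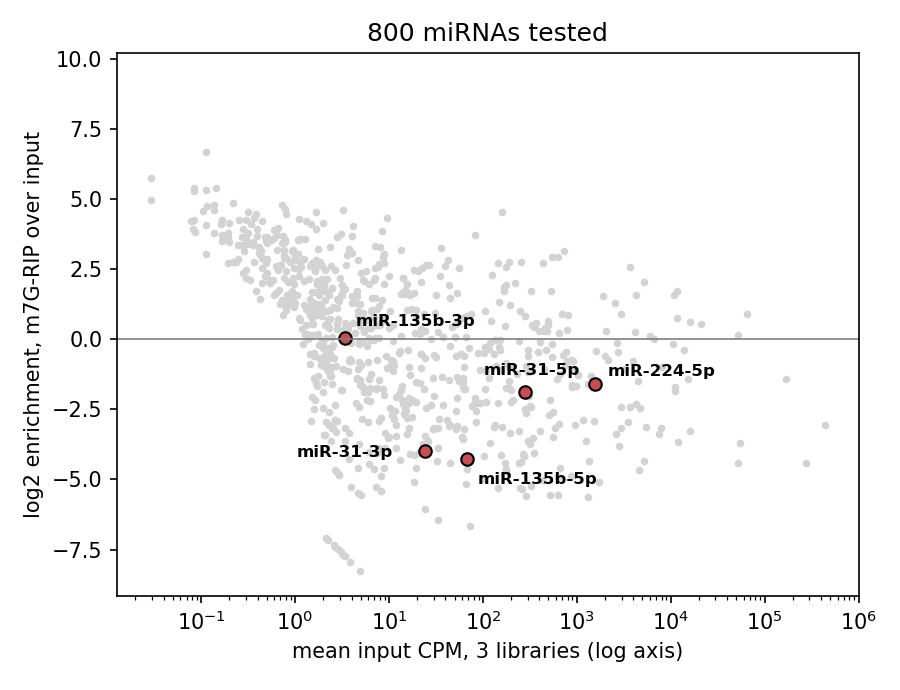
Log2 enrichment of m7G-RIP over input against mean input CPM (log axis) for the 800 tested miRNAs (grey) and the 5 strands (red, named). miR-135b-5p and miR-31-3p lie low in the cloud, miR-31-5p and miR-224-5p in its lower middle, and miR-135b-3p at 0.041.

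The zero of the enrichment scale depends on how the libraries are scaled. Scaling by total counts moved the median of all tested miRNAs up by 1.09 on the log2 scale and upper-quartile factors moved it up by 0.82, while DESeq2's size factors moved it by -0.34. The 4 depleted strands stayed negative and past the threshold under all 3. miR-224-5p came closest to zero, at -0.51 with total counts (edgeR adjusted p = 0.0135), and miR-31-5p stood at -0.76 (edgeR adjusted p = 0.00634). miR-135b-3p was negative with DESeq2's size factors (-0.29) and positive with total counts (1.16), in neither case past the threshold. A change of scaling shifts all miRNAs of a library together, so values measured from the median of all tested miRNAs hardly move by construction. They lay between -2.03 and -1.99 for miR-31-5p, between -4.43 and -4.42 for miR-135b-5p and between -1.76 and -1.74 for miR-224-5p. They give the place of a strand among the tested miRNAs and do not show where zero lies.

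**Figure D3:**
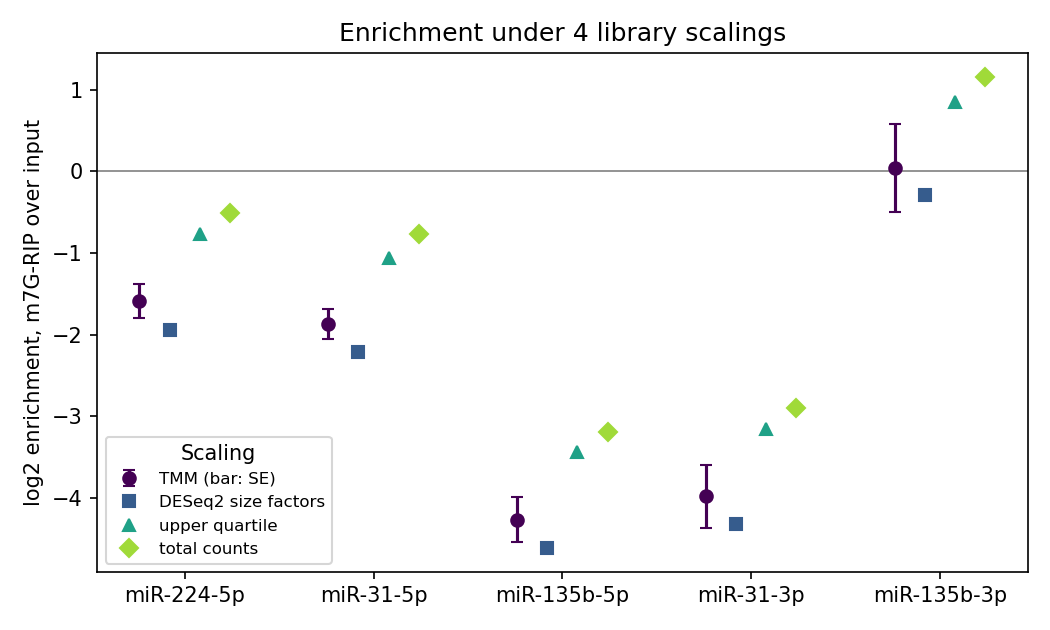
Log2 enrichment of the 5 strands under 4 library scalings, with the standard error shown for TMM. The 4 depleted strands are below zero under each scaling, from -0.51 for miR-224-5p with total counts to -4.62 for miR-135b-5p with DESeq2's size factors, and miR-135b-3p changes sign.

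The ratio of 5p to 3p counts within a library does not depend on scaling. For miR-135b the 5p strand made up 94.2%, 96.3% and 95.2% of the counts of both arms in input replicates 1, 2 and 3. In m7G-RIP the 5p share was 81.8%, 37.9% and 38.5%, so that the 3p strand was the more frequent of the pair in replicates 2 and 3. The mean log2 ratio (with 0.5 added to each count) went from 4.32 ± 0.33 (SD, n = 3) to 0.23 ± 1.56 (SD, n = 3), a difference of -4.08. For miR-31 the arms moved the other way, from a 5p share of 90.4%, 94% and 91.9% to 98%, 98.6% and 97.3%, and the log2 ratio rose from 3.57 ± 0.37 (SD, n = 3) to 5.51 ± 0.47 (SD, n = 3). The input and m7G-RIP ratios did not overlap for either hairpin.

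For miR-224 the 3p strand was read from the same file, with 54, 65 and 44 counts in the input and 4, 1 and 5 in m7G-RIP. The log2 ratio was 8.44 ± 0.20 (SD, n = 3) in the input and 9.12 ± 1.59 (SD, n = 3) in m7G-RIP, and the groups overlapped. In the exact permutation test over libraries (two-sided) p was 0.1 for miR-31 and miR-135b, the smallest value that 3 against 3 libraries allow, and 0.6 for miR-224. With Benjamini-Hochberg adjustment over the 3 ratios these became 0.15, 0.15 and 0.6 (exact permutation test), so no ratio passed the threshold.

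**Figure D4:**
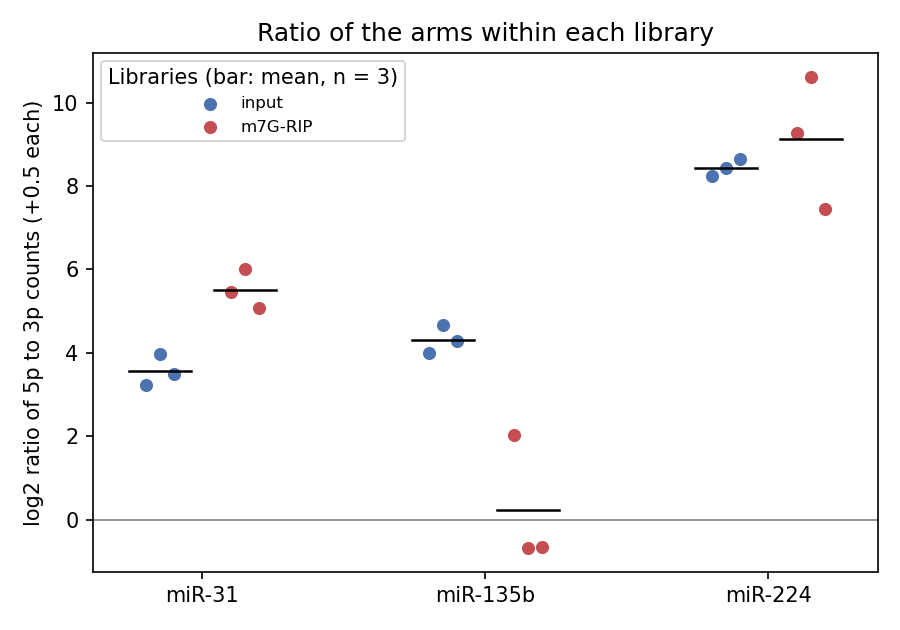
Log2 ratio of 5p to 3p counts, with 0.5 added to each, within each library for miR-31, miR-135b and miR-224, where the bar is the mean of 3. The miR-135b ratios fall to between -0.69 and 2.04 in m7G-RIP, those of miR-31 rise to between 5.07 and 6.01, and those of miR-224 overlap.

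Unequal arms were common in this experiment. Over the 194 hairpins with both arms tested, the log2 enrichment of the 5p arm minus that of the 3p arm had a median of 0.91, and 53.6% of hairpins differed by at least 2 in either direction. The difference was -4.31 for miR-135b, with only 10 hairpins lower. Its place is uncertain, since an m7G-RIP library held only 10 to 18 counts of the 5p strand and 4 to 18 of the 3p strand. The difference was 2.11 for miR-31, with 73 hairpins higher, and 0.69 for miR-224, with 105 higher.

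The base composition of the strands was then set beside their enrichment, as a description over miRNAs that share the same libraries. Of the 800 tested miRNAs 714 had a RefSeq mature sequence, with a median share of G of 27.3%. Depleted miRNAs had a median of 22.7% G and enriched miRNAs 40.9%, and Spearman's rho between the share of G and log2 enrichment was 0.497 (n = 714). miR-135b-5p had the lowest share of the 4 strands with a sequence, 17.4%, and the lowest enrichment, and miR-135b-3p had the highest share, 36.4%, and the highest enrichment. miR-31-5p had a share of 33.3% and miR-224-5p of 24%. Against that trend, miR-31-5p, the richer in G, had the lower log2 enrichment (-1.87, SE 0.19, against -1.59, SE 0.21, with all libraries). This order was the same in every alternative fit except the one without m7G-RIP replicate 1 (-1.73 for miR-31-5p and -1.86 for miR-224-5p). It rested on replicate 1. Between same-numbered libraries, the log2 differences of miR-31-5p and miR-224-5p were -2.22 and -1.04 in replicate 1. They were -1.58 and -1.74 in replicate 2, and -1.88 and -2.12 in replicate 3.

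Within hairpins, 169 had a sequence for both tested arms. In 117 of the 162 with an unequal share of G, or 72.2%, the arm richer in G was the more enriched, and rho between both differences was 0.57 (n = 169 hairpins). The arms of miR-135b differed by -19 percentage points of G (5p minus 3p) and those of miR-224 by 2.26.

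**Figure D5:**
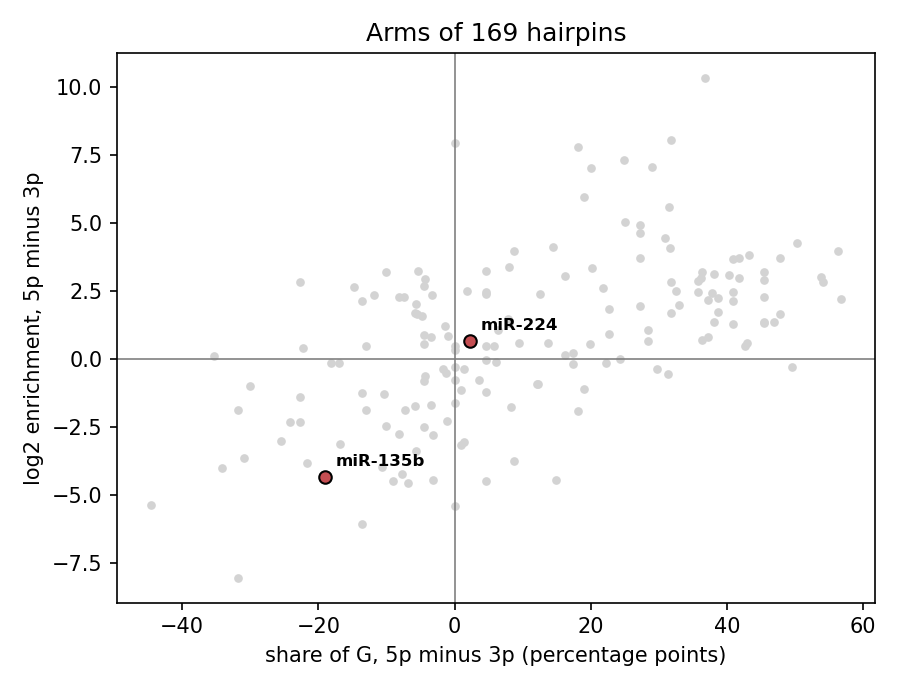
Difference between the arms of 169 hairpins in log2 enrichment against their difference in share of G (both 5p minus 3p), with miR-135b and miR-224 in red. miR-135b lies at -19 percentage points and -4.31, and miR-224 at 2.26 percentage points and 0.69.

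The miRNAs most closely tied to the 5 strands by locus or seed were examined next. miR-452, the neighbour of miR-224 in GABRE, was depleted on both arms. miR-452-5p had 563 ± 11.2 CPM in the input and 93.5 ± 17 CPM in m7G-RIP (mean and SD of 3 libraries each), which gave it a log2 value of -2.59 (SE 0.17, edgeR adjusted p = 1.27e-08), and miR-452-3p one of -3.07 (SE 0.27, edgeR adjusted p = 2.93e-07). miR-224-3p had -2.28 (SE 0.59, edgeR adjusted p = 0.00309), a call that was lost with total counts (-1.19, edgeR adjusted p = 0.106). Its m7G-RIP libraries alone would not have passed it through the filter on low counts, which favoured this direction. All 4 strands of these neighbouring hairpins thus had a lower CPM in m7G-RIP than in the input with TMM scaling, and the fitted loss of miR-224-5p was the smallest.

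miR-135a-5p carries the seed of miR-135b-5p and is printed to show how close the strands are.
miR-135a-5p: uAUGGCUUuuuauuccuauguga
It differs from miR-135b-5p by C11U, counted from the 5′ end with the base of miR-135b-5p first, and alignment allowed a mismatch, so single counts of the rarer miRNA are uncertain. It had 20, 24 and 20 counts in the input and 14, 10 and 0 in m7G-RIP, and its log2 enrichment of 0.18 (SE 0.67, edgeR adjusted p = 0.816) did not pass the test. miR-135a-3p had at most 4 counts in any library and was not tested.

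The strands can also be ranked against each other within a library, free of scaling. The log2 ratio of miR-31-5p to miR-224-5p lay between -2.66 and -2.36 in the input libraries and between -3.53 and -2.15 in the m7G-RIP libraries, so the ranges overlapped. That of miR-31-5p to miR-135b-5p went from between 1.93 and 2.26 to between 3.71 and 5.18, with no overlap. miR-135b-5p to miR-224-5p went from between -4.70 and -4.29 to between -7.69 and -6.53. Every m7G-RIP library thus had a lower share of miR-135b-5p relative to miR-31-5p and to miR-224-5p than every input library. In the exact permutation test (two-sided) p was 0.1 for both ratios, the smallest value possible, and 0.143 after Benjamini-Hochberg adjustment over the 10 pairs of strands, so neither passed the threshold, and it was 0.8 for miR-31-5p to miR-224-5p before and after adjustment.

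The miRNAs nearest to each strand in pattern were found by the distance of log2 CPM over the 6 libraries. For miR-31-5p these were miR-339-5p (distance 0.48, log2 enrichment -2.02), miR-532-3p and miR-4521. For miR-31-3p they were miR-664a-3p (distance 0.73, log2 enrichment -4.05), miR-188-5p and miR-199a-3p. For miR-135b-5p the nearest was miR-141-5p, an arm of the epithelial miR-200 family, at a distance of 0.76 with a log2 enrichment of -4.61, before miR-148b-5p and miR-15b-3p. For miR-224-5p they were miR-181b-5p (distance 0.69, log2 enrichment -1.29), miR-23b-3p and miR-205-5p. miR-135b-3p had no neighbour as close, with miR-658 at 1.24 before miR-7851-3p and miR-4685-3p.

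Other miRNAs reported as raised in colorectal cancer were taken from a list of 20. Of these 18 were tested, and 12 were depleted, 5 enriched and 1 did not pass the test. Over all 800 tested miRNAs 38.1% were depleted and 40.1% enriched. The list had a median log2 enrichment of -2.05, against 0.16 over all tested miRNAs. A low median was not particular to this list. It was -3.49 for the 8 epithelial and intestinal markers and -2.09 for the 8 tested markers of other cell types. The most abundant of the list were miR-21-5p, a repressor of the tumour suppressor PDCD4, with a log2 enrichment of -4.43, and miR-92a-3p, with 0.90. The same miR-92a-3p sequence lies in MIR92A1 of the miR-17/92 cluster and in MIR92A2 on chromosome X, which its counts cannot tell apart. The extremes were miR-183-5p at 2.03 and miR-19a-3p at -5.58. The 5 enriched miRNAs were miR-182-5p and miR-183-5p, which come from a shared cluster, miR-92a-3p, miR-155-5p and miR-222-3p, and miR-135a-5p was the one that did not pass. The list thus did not move in a single direction, and 5 were enriched under each of the 4 scalings. Entries from a shared cluster, such as miR-182-5p and miR-183-5p, are not independent of each other.

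Of 16 miRNAs reported as lowered in colorectal cancer 13 were tested, and 8 were depleted, 2 enriched and 3 did not pass the test. Over all tested miRNAs these shares were 38.1% depleted and 40.1% enriched. The median log2 enrichment of the 13 was -1.31. With total counts the split was 5 enriched and 6 depleted. The most abundant were miR-378a-3p with -1.71 and miR-1-3p, best known from muscle, with 0.23 (edgeR adjusted p = 0.223). Its direction depended on the scaling, with -0.12 under DESeq2's size factors (edgeR adjusted p = 0.496), 1.31 under total counts (edgeR adjusted p = 1.15e-05) and 1.05 under upper-quartile factors (edgeR adjusted p = 0.000141). miR-375 was enriched (1.23), and miR-133b (-1.31) and miR-139-5p (-0.37) did not pass. The extremes were miR-139-3p at 3.45, on 5 to 12 counts in the input, and miR-145-5p, a stromal miRNA, with 43, 47 and 53 counts in the input and 1, 0 and 0 in m7G-RIP. miR-139-3p, among the 2 enriched, passed the filter on low counts only through m7G-RIP, and miR-145-5p only through the input. The filter thus favoured the direction of each, and neither value is read as a result.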

How the data were processed

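Small RNA libraries of 3 input and 3 m7G-RIP samples from Caco-2 cells were analysed. The authors trimmed adaptors with Trimmomatic, mapped reads to GRCh38 and counted them on mature miRNAs of miRBase with featureCounts. The mapping tool is STAR in the study's methods, with up to 1 mismatch, and Bowtie2 in the submitters' processing notes. The deposited values are raw counts per miRNA and library. Reads with up to 10 equally good loci were kept at mapping per the methods, and how they were then counted is not given in the sources used here. Reads carry no molecular identifiers, so floors of 3 counts cover counting error only.

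Enrichment was tested with edgeR 4.0.16 in R 4.3.3 (filterByExpr with a minimum count of 10 and total of 15, TMM, quasi-likelihood test, Benjamini-Hochberg over 800 miRNAs, threshold 0.05). The standard error was the absolute log2 enrichment divided by the square root of F. Counts were also simulated for 800 miRNAs with the real library sizes, the same dispersion for every miRNA, and changes up or down at random. The test recovered 70.1% of changes of 1, 98.4% of 2 and 98.5% of 3 on the log2 scale (67, 63 and 68 miRNAs changed). Far more miRNAs were called in the real data (321 enriched and 305 depleted), so these rates need not hold there. Arm ratios used an exact permutation test over libraries in scipy 1.17.1 and a pseudocount of 0.5. Alternatives were DESeq2's size factors, total counts, upper-quartile factors, DESeq2 1.42.0 (Wald test, used in the study's methods), a minimum of 10 counts in every library, no filter, the replicate block, leaving out each library, a threshold of 0.01 and, for arms, a pseudocount of 1.

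The labels do not say whether replicates were separate cultures, so p-values measure the spread between these samples. No libraries were copies (within groups, chi-square over degrees of freedom lay between 17.5 and 105). Members and lists were chosen with earlier results of these data known. The miRNAs named are the members, their opposite arms, seed relatives and genomic neighbours, the 3 nearest in pattern to each member, and of each colorectal list the 2 most abundant and the highest and lowest in enrichment, with any other miRNA named chosen after its values were seen. Sequences are from RefSeq GRCh38.p14 and gene models from GENCODE 44.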

Additional observations from a re-analysis of the deposited data

How the results depend on the processing

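The 4 depleted strands remained negative and past the threshold under every alternative that tested them, and 0 of the 5 strands were enriched under any. With at least 10 counts in every library miR-31-3p and miR-135b-3p were not tested, so 3 strands were depleted. With each library left out, the log2 enrichment lay between -2.20 and -1.73 for miR-31-5p, -4.32 and -3.82 for miR-31-3p, -4.54 and -4.20 for miR-135b-5p, and -1.86 and -1.47 for miR-224-5p. That of miR-135b-3p changed sign. It was -0.29 with DESeq2's size factors, -0.27 without a filter, -0.26 in DESeq2's Wald test, and it ranged from -0.50 to 0.47 over the fits that left out a library. The miR-224 arm ratio moved between -0.069 and 1.51 with each library left out, turning negative without m7G-RIP replicate 2. Those of miR-31 (1.70 to 2.17) and miR-135b (-4.99 to -3.62) kept their direction. From the colorectal lists, 17 to 21 miRNAs were depleted under all alternatives, against 20 as reported.

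With the replicate number as a block (replicate block), miR-135b-3p had -0.040 and the other 4 strands stayed depleted. The deviations of same-numbered libraries from their group means had correlations of -0.014, -0.028 and 0.060, so no shared deviation was seen. These values cannot tell whether a same-numbered input and m7G-RIP library came from the same RNA. The block gave 296 enriched and 295 depleted miRNAs against 321 and 305. For the arm ratios, p over pairs was 0.25, 0.25 and 0.75 (exact sign-flip test, for which 0.25 is the smallest value).

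Among the other named miRNAs, those near zero changed sign. With DESeq2's size factors miR-135a-5p had -0.18, miR-1-3p -0.12 and miR-4685-3p -0.27. Without a filter they had -0.12, -0.077 and -0.24, and in DESeq2's Wald test -0.23, -0.12 and -0.27. miR-135a-5p had -0.085 with the block. miR-7851-3p had 0.050 with total counts. With each library left out the ranges were -0.46 to 0.57 for miR-135a-5p, -0.032 to 0.35 for miR-1-3p, -0.28 to 0.35 for miR-4685-3p and -0.14 to 0.67 for miR-658. miR-1-3p passed the threshold as enriched with total counts (1.31, adjusted p = 1.15e-05, edgeR), with upper-quartile factors (1.05, adjusted p = 0.000141, edgeR) and without m7G-RIP replicate 3 (0.31, adjusted p = 0.0324, edgeR), miR-658 with total counts (1.47, adjusted p = 0.0248, edgeR) and upper-quartile factors (1.15, adjusted p = 0.0399, edgeR), and miR-7851-3p lost it without input replicate 1, 2 or 3 or m7G-RIP replicate 1 (-1.07 to -0.76). The cause was not tested. Depth limits the values of miR-31-3p, miR-135b-5p, miR-135b-3p and miR-224-3p, which had 1 to 18 m7G-RIP counts per library.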
